A study of Mus musculus with 4 samples.

Results

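The 10 genes described here, Pde1a, Pde1c, Pde2a, Pde4a, Pde4b, Pde4d, Pde5a, Pde7b, Pde8b and Pde11a, encode cyclic nucleotide phosphodiesterases, and each was found by its symbol as 1 row among the 21933 genes measured by single-nucleus RNA sequencing (snRNA-seq) of the mouse cerebral cortex. They were chosen by their UMI levels across cell types and their control against CrT-KO differences in these same nuclei, so their levels and genotype differences are given as descriptions. Where a fit across all genes called a member, this is stated as part of the description and is no independent evidence of a difference. The study compared adult male mice lacking the creatine transporter (CrT-KO, CrT-/y, with a constitutive deletion within the X-linked gene Slc6a8 on a C57Bl/6J background) with wild-type littermates (control, CrT+/y). Nuclei of the right cortex were sorted by flow cytometry, and each of the 4 libraries held the nuclei of 1 animal, 2 per genotype.

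Cyclic AMP and cyclic GMP are made by adenylyl and guanylyl cyclases and are broken down by phosphodiesterases, which set how high the signal rises, how long it lasts and how far it spreads in the cell. The families differ in the nucleotide they prefer and in how they are regulated. Pde1 enzymes are switched on by calcium and calmodulin and cleave both nucleotides, Pde2 and Pde11 enzymes also cleave both, Pde4, Pde7 and Pde8 enzymes prefer cyclic AMP, and Pde5 prefers cyclic GMP. In the brain, neurons and glia use different sets of these enzymes, and striatal projection neurons, where dopamine receptors act through cyclic AMP, carry several at high level.

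The files held 35694 nuclei with 51507483 to 65240843 unique molecular identifiers (UMIs) per library, and CrT-KO 1 had the highest median depth, 6700.5 UMIs per nucleus against 5548 to 6006 in the other libraries. Slc6a8 was at 6.94 and 6.16 CPM (UMIs scaled to a common total over the same nuclei) in the named nuclei of the controls and at 1.64 and 1.63 CPM in those of the CrT-KO mice, in the direction of the labels. A deleted part of the gene leaves the rest to be counted, so a level above 0 is no conflict with the labels. After removal of 1236 probable doublets, 34404 of 34458 nuclei were assigned from marker genes to 7 classes. Neurons were split into 8 excitatory types and 5 inhibitory ones, called "-like" after their markers, which gave 18 populations that share no nucleus. Neurons of sub-clusters that did not pass the naming rules for a type stayed in their class alone and are in none of the 18. The 2721 medium spiny neuron (MSN)-like nuclei carry markers of striatal projection neurons although the samples were labelled as cortex. The libraries shared 96 cell barcodes in pairs. The endothelial/pericyte population (39 to 90 nuclei per library) and the astrocytes (56 to 172) were the smallest, and neuronal RNA was present in all non-neuronal populations: the summed level of 10 excitatory markers reached 12.5% of its level in excitatory neurons in oligodendrocytes, 21.7% in oligodendrocyte precursor cells (OPCs), 17.4% in microglia, 9.19% in astrocytes and 38.9% in endothelial/pericyte nuclei.

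Cyclic AMP acts on transcription through CREB, which binds the cyclic AMP response element TGACGTCA or its 5-base core, so the promoters of the 10 genes were read for this element as a point of reference. RefSeq promoter windows of 300 bases (250 before and 50 after a transcription start, GRCm38.p6) matched all 10 genes with 28 windows. The full element was in 0 of the 28 windows and in 1.79% of all 32851 windows, and the core, TGACG or its reverse complement CGTCA (the full element holds both), was in 5 windows of 5 genes, Pde1a, Pde2a, Pde4a, Pde4b and Pde8b, or 17.9% of their windows against 20.8% of all. Of the 4 windows of Pde4b, the gene described most closely between genotypes below, the 1 that holds the core is shown, and its core begins 34 bases upstream of a transcription start inside the gene body. It spans chr4:102421305-102421604 on the plus strand, and the capitals mark the core. A match is no evidence of binding.
Pde4b: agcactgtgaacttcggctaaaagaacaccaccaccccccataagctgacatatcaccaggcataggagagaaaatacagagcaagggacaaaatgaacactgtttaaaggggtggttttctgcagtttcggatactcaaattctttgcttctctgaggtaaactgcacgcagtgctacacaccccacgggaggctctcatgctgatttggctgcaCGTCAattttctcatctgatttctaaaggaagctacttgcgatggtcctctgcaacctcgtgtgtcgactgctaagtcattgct

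Levels below are CPM, relative to all UMIs of a population in a library, as mean ± SD over 4 libraries, and are compared between populations for 1 gene at a time, with levels of different genes set side by side only per length of gene body. The members shaped the clusters in part, so these levels describe the populations rather than test them. Each of the 9 members other than Pde2a had its highest mean in a population set apart by known markers, and those highest populations were L6b-like, L5 IT-like and L6 CT-like neurons for Pde1a, Pde4a and Pde4d, LAMP5-like and PV-like interneurons for Pde11a and Pde5a, MSN-like neurons for Pde1c and Pde7b, oligodendrocytes for Pde4b and endothelial/pericyte nuclei for Pde8b. Each of these 9 members kept its highest population when the clusters were rebuilt without the phosphodiesterases and the other pathway genes among the variable genes. For Pde5a, PV-like interneurons were highest in only 2 of the 4 libraries.

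**Figure D1:**
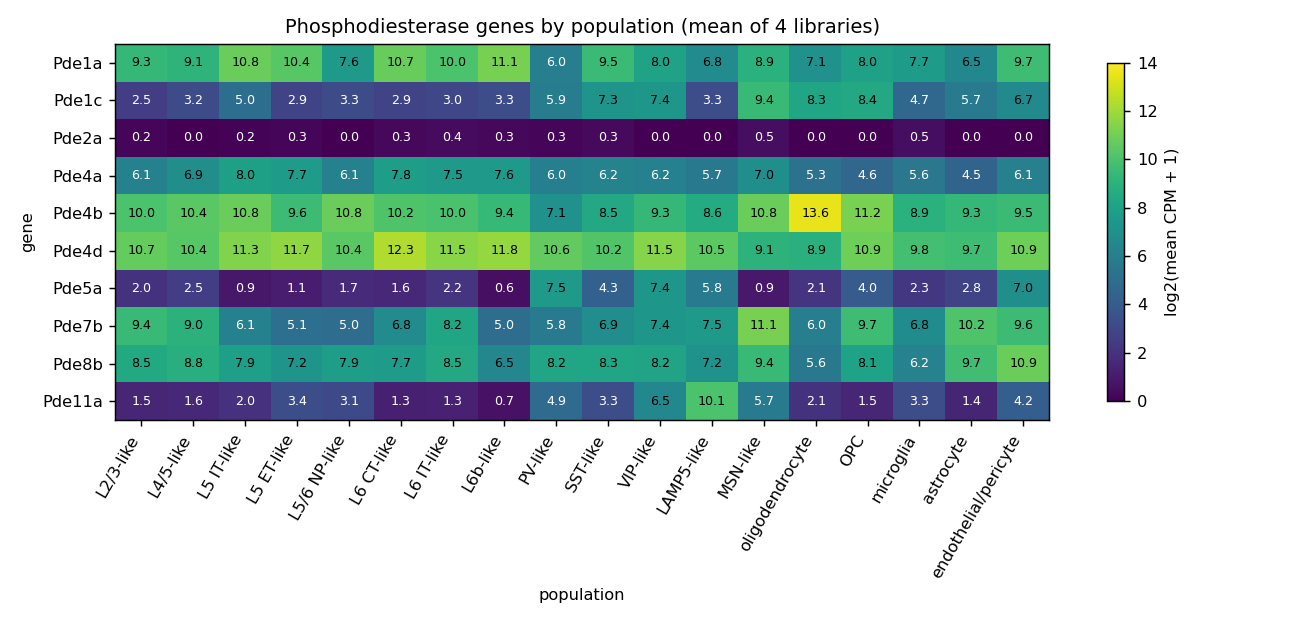
Mean level of each gene (rows, log2(CPM + 1), colour and printed value) in 18 populations (columns), averaged over the 2 control and 2 CrT-KO libraries. Pde4b peaks in oligodendrocytes (11994 CPM), Pde11a in LAMP5-like interneurons (1059 CPM) and Pde4d in L6 CT-like neurons (5215 CPM). The row of Pde2a is not read as a level.

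The calcium- and calmodulin-dependent pair differed in pattern. Pde1a (chr2:79834453-80129458, minus strand, 295 kb) was highest in deep-layer excitatory neurons, with 2197 ± 155 CPM in L6b-like, 1755 ± 239 in L5 IT-like, 1703 ± 263 in L6 CT-like and 1327 ± 185 in L5 ET-like nuclei (SD, n = 4 libraries). The library ranges of these neighbours overlapped, so their order is not firm. PV-like interneurons had the lowest level, 63.1 ± 11.4 CPM, and SST-like interneurons had 740.5 ± 89.4. In oligodendrocytes and astrocytes Pde1a stood at 14% and 9.41% of its excitatory level, close to the 12.5% and 9.19% of the excitatory markers there, and these glial values are not read as expression.

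Pde1c (chr6:56069804-56569103, minus strand, 499.3 kb) was low in the 8 excitatory types, with 4.79 to 32.0 CPM. It was highest in MSN-like neurons at 686 ± 35.9 CPM (638, 698, 685 and 724 in control 1, control 2, CrT-KO 1 and CrT-KO 2), followed by OPCs at 344 ± 54.9 and oligodendrocytes at 316 ± 29.7 CPM. The MSN-like libraries all lay above those of the next population, while OPCs and oligodendrocytes overlapped. VIP-like and SST-like interneurons had 172 ± 18.1 and 153 ± 18.5 CPM, and LAMP5-like interneurons 8.91 ± 2.68.

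Of the other pair that cleaves both nucleotides, Pde2a could not be measured. Its record (chr7:101421691-101512827, plus strand) had 39 UMIs in all named nuclei, 99.991% of it lies within a protein-coding record on the same strand, Gm45837, and that record had 63 UMIs. In a reference that counts whole gene bodies, a read inside both records belongs to neither alone, so neither count is read as a level. Apart from Pde2a, no member overlapped another gene of the files.

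Pde11a (chr2:75989141-76338774, minus strand, 349.6 kb) had the narrowest pattern. LAMP5-like interneurons, the neurogliaform type, had 1059 ± 95.4 CPM (1179, 977, 1093 and 989 in the 4 libraries in the order above), against 92.5 ± 9.00 in VIP-like and 51.5 ± 10.1 in MSN-like nuclei, and the highest population stood 199 times over the median population. LAMP5-like libraries all lay above the others. In the excitatory types it was between 0.594 and 9.23 CPM, yet 661 excitatory nuclei of a sub-cluster left without a type name had 127 CPM. A sub-cluster of 54 PV-like nuclei, led by Mctp2 and Unc5b, had 707 CPM and held most of the Pde11a UMIs of that type.

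Among the cyclic AMP-specific Pde4 genes, which carry the targets of the drug rolipram, Pde4b (chr4:102087543-102607259, plus strand, 519.7 kb) was highest in oligodendrocytes by a wide margin. There it reached 11994 ± 250 CPM, with 12177, 12021, 11633 and 12147 CPM in the 4 libraries. OPCs followed with 2335 ± 112 CPM, then MSN-like (1785 ± 123), L5/6 NP-like (1770 ± 116) and L5 IT-like neurons (1768 ± 196), 3 populations whose ranges overlapped. The oligodendrocyte and OPC libraries each stood apart from the next population, and PV-like interneurons were lowest at 135 ± 11.8 CPM. Oligodendrocyte nuclei are shallow, at a median of 1220 to 1416 UMIs per library, and per nucleus they held 17.42 Pde4b UMIs, close to the 17.98 of L5 IT-like neurons.

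Pde4d (chr13:108449948-109953461, plus strand) is the longest of the 10 genes at 1504 kb, and a pre-mRNA reference counts all of it. It was highest in L6 CT-like neurons, 5215 ± 138 CPM (5113, 5113, 5405 and 5229), above every library of L6b-like (3545 ± 384) and L5 ET-like neurons (3299 ± 70.1). Oligodendrocytes, where Pde4b peaked, had the lowest Pde4d at 467 ± 38.8 CPM, and MSN-like neurons had 538 ± 47.5.

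Pde4a (chr9:21165714-21213248, plus strand) is the shortest at 47.5 kb, so its level is counted from fewer bases. It followed the deep excitatory layers, with 252 ± 23.3 CPM in L5 IT-like, 219 ± 17.8 in L6 CT-like and 209 ± 28.8 in L5 ET-like neurons, and the range of each overlapped the next. Per 100 kb of gene body, the highest level of each gene was 2308 CPM for Pde4b in oligodendrocytes, 819 for Pde8b, 745 for Pde1a, 675 for Pde7b, 530 for Pde4a, 347 for Pde4d, 303 for Pde11a, 141 for Pde5a and 137 for Pde1c. Whether counts grow in proportion to gene length was not tested, so no order of the genes is read from these values.

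Pde7b (chr10:20398004-20725078, minus strand, 327 kb) was highest in MSN-like neurons, 2209 ± 184 CPM (2245, 2298, 1941 and 2353), apart from the next population. Astrocytes had 1151 ± 251 CPM, 324% of the excitatory level, and OPCs 812 ± 66.3. Within excitatory neurons it followed the upper layers, 697 ± 99.1 CPM in L2/3-like and 507 ± 95.8 in L4/5-like nuclei against 30.7 ± 1.99 in L6b-like nuclei. Of those 3 types, Pde1a and Pde4d were instead highest in L6b-like nuclei.

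Pde8b (chr13:95024454-95250336, minus strand, 225.9 kb), a high-affinity enzyme for cyclic AMP, was highest in endothelial/pericyte nuclei at 1851 ± 442 CPM (1862, 1222, 2149 and 2170), on 126 to 273 UMIs per library. Astrocytes with 836 ± 139 and MSN-like neurons with 694 ± 67.5 CPM came next, and oligodendrocytes were lowest at 49.0 ± 6.71 CPM. Per nucleus, MSN-like neurons ranked first with 3.78 UMIs against 2.99 in endothelial/pericyte nuclei.

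Pde5a (chr3:122728947-122859374, plus strand, 130.4 kb), the cyclic GMP-specific enzyme inhibited by sildenafil, was low in the excitatory types (0.508 to 4.76 CPM) and high in some interneurons. PV-like interneurons had 183 ± 23.3 CPM (218, 173, 170 and 173) and VIP-like interneurons 168 ± 29.4 (188, 132, 196 and 159), with overlapping ranges, and LAMP5-like interneurons had 56.3 ± 13.6. Endothelial/pericyte nuclei had 127 ± 53.0 CPM on 4 to 31 UMIs per library. SST-like interneurons, which share an origin with PV interneurons, had 19.0 ± 5.46 CPM, below every PV-like library.

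The MSN-like nuclei held 7 sub-clusters of at least 20 nuclei, and most members varied widely among them. The sub-clusters led by Drd2, with the marker genes Penk and Adora2a of indirect-pathway neurons, had 3143 and 1870 CPM of Pde7b, and 2370 and 2247 CPM of Pde4b. High Pde7b was not particular to them, with 2674 CPM in the sub-cluster led by Impg1 and Ebf1 and 1987 in that led by Fign. The remaining sub-clusters had 409 to 1698 CPM of Pde7b. A sub-cluster of 234 nuclei led by Casz1, Sema5b and Foxp2 had 4705 CPM of Pde4b (4520 to 4888 over the libraries) but 82.3 CPM of Pde1c, which stood at 586 to 1010 in 5 others. A sub-cluster of 189 nuclei with Drd3 among its leading genes had 4363 CPM of Pde1a (3328 to 5032) and 2206 of Pde8b, with 27.3 of Pde1c and 409 of Pde7b. Pde5a was between 0 and 1.52 CPM in all 7.

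**Figure D2:**
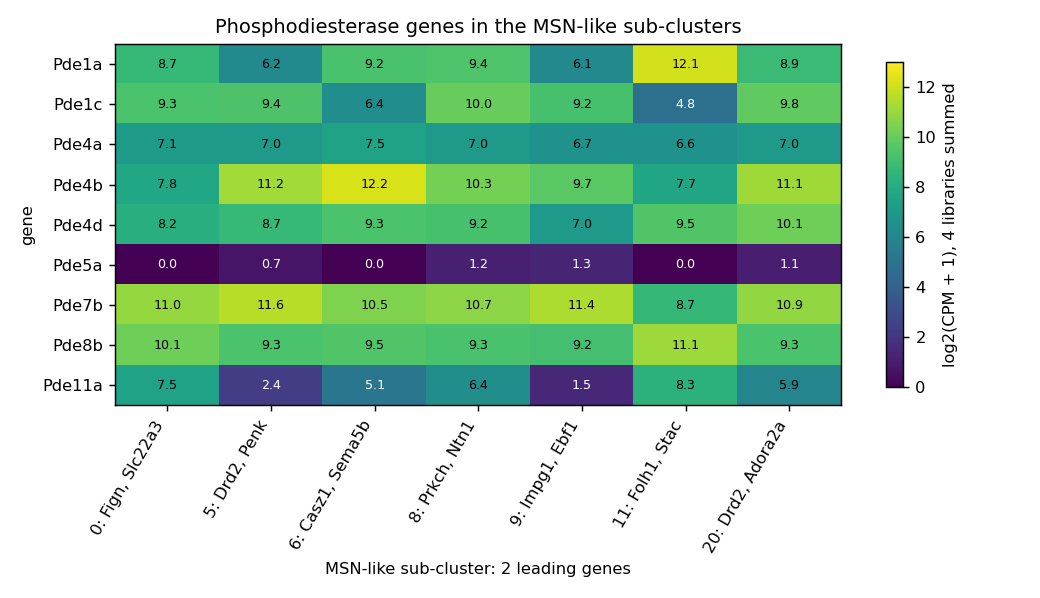
Level of 9 members (rows, log2(CPM + 1), 4 libraries summed) in the 7 MSN-like sub-clusters (columns, numbered, with 2 leading genes each). Pde1a peaks in sub-cluster 11 (4363 CPM), where Pde1c is lowest (27.3 CPM), and Pde4b peaks in sub-cluster 6 (4705 CPM).

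Over the 18 populations and 11395 genes with at least 10 CPM in 1 of them, the genes most like each member by Pearson's r of log2(CPM + 1) were the following, as a description over points that share libraries. Pde1a was closest to Dpp10 (0.90) and Cacna1e (0.88), Pde1c to Sytl5 (0.87) and Stk32a (0.85), Pde4a to Matk (0.90) and Ankrd33b (0.89), and Pde4b to Klhl2 (0.83) and Inf2 (0.80). Pde4d was closest to Ppm1e and Ube2ql1 (both 0.88), Pde5a to Btbd11 (0.90) and Kcnmb2 (0.84), Pde7b to Zbtb7c (0.80) and Cbr3 (0.77), Pde8b to Tmem263 (0.86) and Arhgef17 (0.81), and Pde11a to Myo3a (0.87) and Dchs2 (0.85). Btbd11 was itself among the markers used to name PV-like nuclei.

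The comparison of genotypes asked whether creatine transporter loss altered gene expression within each population. UMIs were summed per library and population, fitted across all genes with edgeR, and a gene was called at an adjusted p under 0.1. Of the 180 pairs of a member and a population, 139 passed the low-count filter (Pde2a in none) and 1 was called, Pde4b in SST-like interneurons. Since the members were chosen with this contrast in view, nothing is read from that call, from the count or from the members' share at an unadjusted p below. The share of all genes called was 0.445% in L2/3-like, 0.854% in L4/5-like, 0.692% in L5 IT-like, 0.175% in L5 ET-like, 0.0298% in L5/6 NP-like, 0.0284% in L6 CT-like, 0.108% in L6 IT-like and 0.0403% in L6b-like neurons. It was 0.0209% in PV-like, 0.133% in SST-like, 0.0646% in LAMP5-like and 0.0686% in MSN-like neurons, 0.175% in oligodendrocytes, 0.0342% in OPCs, 0.0413% in microglia and 0.0199% in astrocytes, and 0.193% and 0.0774% in excitatory and inhibitory neurons taken whole. In VIP-like and endothelial/pericyte nuclei edgeR called 0% of the genes (0 by DESeq2 too), with 327 and 77 genes at an unadjusted p under 0.05. The members had 17 of 139 pairs (12.2%) at an unadjusted p under 0.05, all genes 6.58%, and the median log2 fold change of CrT-KO over control was 0.02 over the members' pairs, with 87 within 0.2 of 0, beside medians of -0.01 to 0.01 for all genes by population. Nuclei come from 2 animals per genotype, so each value below rests on that spread. All populations share these animals, so counts below of populations with the same sign are not counts of independent results, and nothing is read from them.

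**Figure D3:**
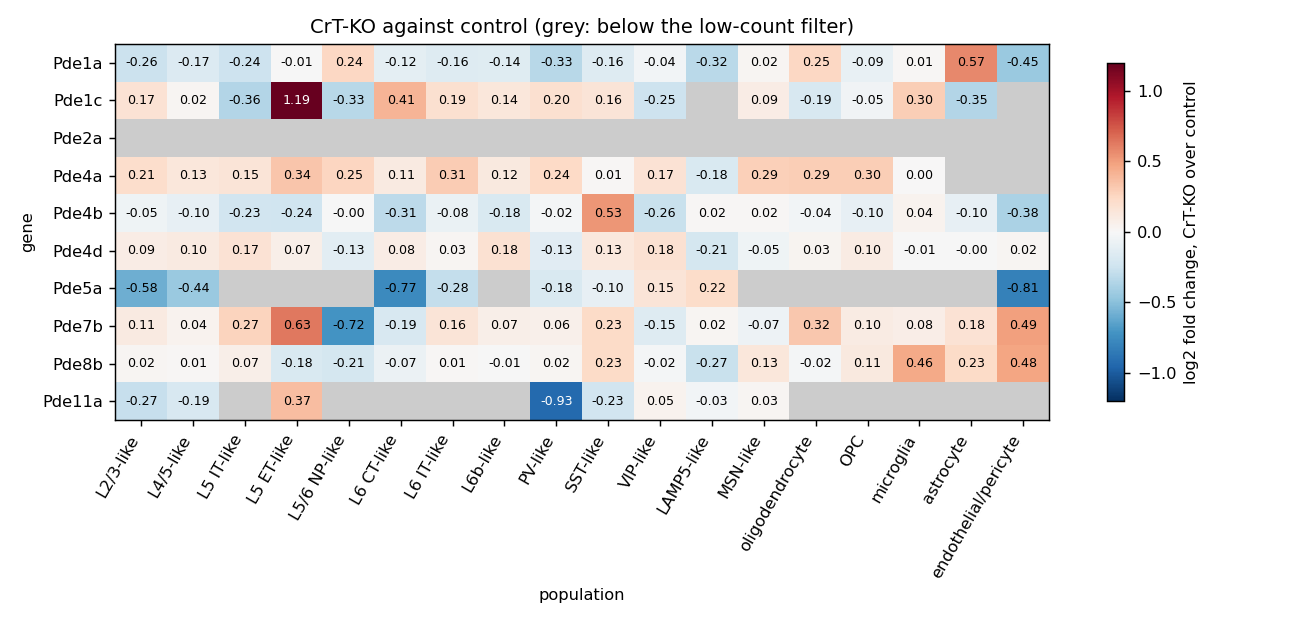
Log2 fold change of CrT-KO over control for each gene (rows) in 18 populations (columns) from fits across all genes, with grey for pairs below the low-count filter. The genes were chosen with these differences in view. Pde4b in SST-like nuclei is at 0.53, and the largest values of either sign are Pde1c in L5 ET-like (1.19) and Pde11a in PV-like nuclei (-0.93).

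Pde4b was higher in CrT-KO in SST-like interneurons and lower by estimate in several other neuron types, and the difference between types was not tested. In SST-like interneurons it was at 288 and 297 CPM in the controls and at 433 and 400 CPM in the CrT-KO libraries (539, 562, 904 and 752 UMIs), so both CrT-KO libraries lay above both controls, with a log2 fold change of 0.53 (SE 0.10). In L6 CT-like neurons it was at 1201 and 1345 CPM in the controls and 1028 and 984 in the CrT-KO libraries, both lower, with a log2 fold change of -0.31 (SE 0.08) that was not called. L5 IT-like (-0.23, SE 0.08), L5 ET-like (-0.24, SE 0.10) and VIP-like neurons (-0.26, SE 0.11) also had both CrT-KO libraries below both controls. Over the 18 populations the estimate was negative in 14. In oligodendrocytes, where the gene is highest, the 2 groups overlapped (log2 fold change -0.04, SE 0.11).

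**Figure D4:**
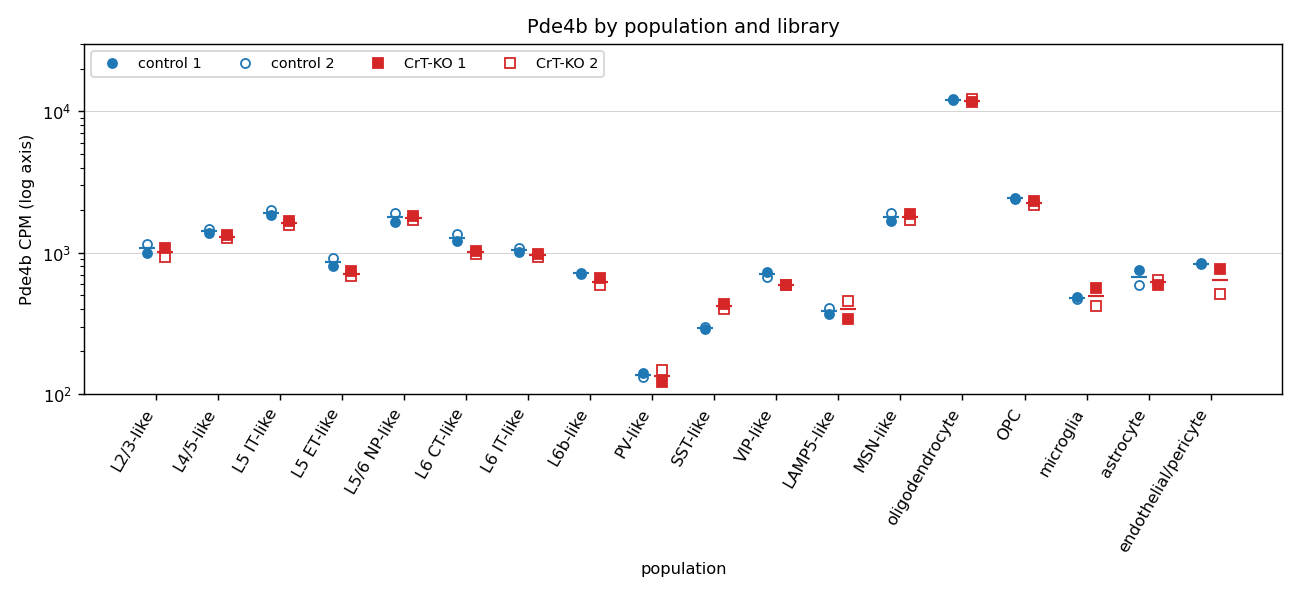
Pde4b level (CPM, log axis) in each library of 18 populations, with circles for the 2 controls, squares for the 2 CrT-KO libraries and bars for group means. Both CrT-KO libraries lie above both controls in SST-like nuclei (433 and 400 against 288 and 297 CPM) and below them in L6 CT-like nuclei.

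By the ratio of means, the SST-like difference was largest in 1 of the 3 SST-like sub-clusters. A sub-cluster of 152 nuclei led by Nos1, Hhip and Tacr1 and marked by Chodl, genes of long-range projecting SST neurons, had 1102 and 828 CPM of Pde4b in the controls and 1547 and 1647 CPM in the CrT-KO libraries. It held 31 and 35 control nuclei and 46 and 40 CrT-KO nuclei, and between 43.4% and 59.4% of the Pde4b UMIs of the type. The 522 nuclei led by Lama4 had 217 and 242 CPM against 319 and 253, so both CrT-KO libraries lay above both controls there too. The 408 nuclei led by Trhde had 130 and 139 against 137 and 107, which overlap. Without the Nos1 and Chodl sub-cluster, chosen after its values were seen, SST-like Pde4b was 180 and 199 CPM in controls and 245 and 190 in CrT-KO libraries, so the groups overlapped and the log2 ratio of means fell from 0.51 to 0.20. With cluster shares held equal the ratio was 0.46. When clusters were rebuilt without Pde4b and the pathway genes, the sub-cluster was found again with 1102 and 835 against 1488 and 1647 CPM, and the SST-like log2 fold change was 0.56 (SE 0.09) in these largely shared nuclei. Oligodendrocytes have the highest Pde4b, and the summed level of their 12 markers in SST-like nuclei was 81.1 to 141 CPM in controls and 81.4 to 83.9 CPM in CrT-KO libraries. Without the low-count filter, which raised the genes tested in SST-like nuclei from 9010 to 15578, the log2 fold change stayed at 0.53 and was no longer called.

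**Figure D5:**
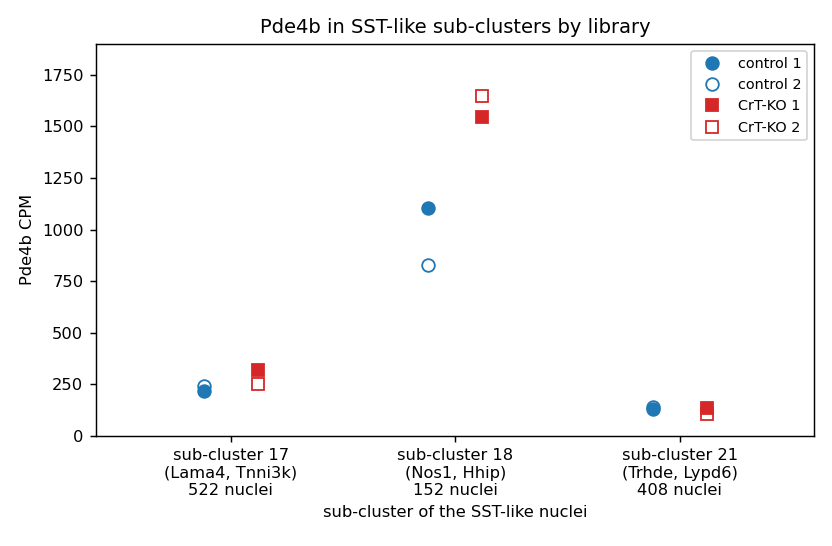
Pde4b level (CPM, linear axis from 0) in the 3 SST-like sub-clusters, by library, with circles for controls and squares for CrT-KO. In the sub-cluster led by Nos1 and Hhip the CrT-KO libraries (1547 and 1647) lie above the controls (1102 and 828). They also do in that led by Lama4 (319 and 253 against 217 and 242), and the groups overlap in the sub-cluster led by Trhde.

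Pde4a was higher in CrT-KO by estimate in 15 of the 16 populations fitted, which share the same animals, and none was called. In excitatory neurons as a whole it was 128 and 141 CPM in the controls and 163 and 141 in the CrT-KO libraries, so the groups overlapped and CrT-KO 1, the deepest library, was the high one. The log2 fold change was 0.23 (SE 0.08) with all libraries and 0.14 (SE 0.10) without CrT-KO 1. In L5 ET-like neurons the libraries did not overlap, at 186 and 189 against 248 and 213 CPM (0.34, SE 0.11), nor in MSN-like neurons, at 116 and 109 against 142 and 131 CPM (0.29, SE 0.11). The part of depth in these values was not tested.

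Pde4d had estimates from -0.21 to 0.18 over the 18 populations, and none was called. Its log2 fold change was 0.17 (SE 0.08) in L5 IT-like neurons, where both CrT-KO libraries lay above both controls. In L6 CT-like neurons, where Pde4d is highest, it was 0.08 (SE 0.06).

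Pde1a was lower by estimate in 13 of 18 populations, and none was called. In L5 IT-like neurons it was 2091 and 1745 CPM in the controls and 1649 and 1537 in the CrT-KO libraries (-0.24, SE 0.09), and in L2/3-like neurons 739 and 661 against 520 and 608 CPM (-0.26, SE 0.09). Both pairs of groups lay apart, but control 1 was the high library in each. In L6b-like neurons, the population with the highest level, the groups were also apart, 2240 and 2398 against 2070 and 2081 CPM (-0.14, SE 0.12). Pde1c in MSN-like neurons overlapped between genotypes (0.09, SE 0.11), and its value of 1.19 (SE 0.44) in L5 ET-like neurons rested on counts of 13 and 3 for the control animals and of 22 and 25 for the CrT-KO animals, and it was 2.41 without control 1.

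Pde7b separated the 2 CrT-KO animals more than the genotypes in upper-layer neurons. In L4/5-like nuclei it was 534 and 484 CPM in the controls, 391 in CrT-KO 1 and 621 in CrT-KO 2, and in L2/3-like nuclei 676 and 689, 592 and 831. The CrT-KO libraries thus lay on both sides of the controls, with log2 fold changes of 0.04 (SE 0.14) and 0.11 (SE 0.12). At low level, in L5 ET-like neurons, it was 24.0 and 30.5 against 44.2 and 37.4 CPM (0.63, SE 0.19), which was not called and was 0.16 with doublets kept. The estimate in L5/6 NP-like neurons had the opposite sign (-0.72, SE 0.33), with both CrT-KO libraries below both controls, and was not called either. In MSN-like neurons the groups overlapped (-0.07, SE 0.12).

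Pde8b in SST-like interneurons was 276 and 291 CPM in controls and 305 and 351 in CrT-KO libraries (0.23, SE 0.10), and in endothelial/pericyte nuclei 1862 and 1222 against 2149 and 2170 (0.48, SE 0.30). Neither was called. Pde5a in PV-like interneurons overlapped between the groups at 218 and 173 against 170 and 173 CPM (-0.18, SE 0.11).

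Pde11a overlapped in LAMP5-like interneurons, where it is highest, at 1179 and 977 against 1093 and 989 CPM (-0.03, SE 0.13). In PV-like nuclei it was 46.0 and 30.5 CPM in controls and 16.0 and 24.5 in CrT-KO libraries (-0.93, SE 0.23), not called. The small sub-cluster that carries most of these UMIs held 16 and 19 control nuclei and 8 and 11 CrT-KO nuclei, with 1090 and 552 CPM of Pde11a in the controls and 635 and 483 in the CrT-KO libraries, which overlap (log2 ratio of means -0.56). With the sub-cluster left out, the log2 ratio of means moved from -0.92 to -0.14, and the libraries overlapped at 9.84 and 8.58 against 5.55 and 11.2 CPM.

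The other genes of cyclic nucleotide signaling were taken from 8 lists of 94 genes, of which 93 were in the files. Over the 18 populations edgeR called 0 of 1025 gene and population pairs as higher and 3 as lower in CrT-KO, with 69 (6.73%) at an unadjusted p under 0.05, beside 292 calls among 148050 pairs of all genes, 145 of them higher and 147 lower. Of the lists, the 14 other phosphodiesterases (139 pairs, median log2 fold change 0.01), 10 adenylyl cyclases (131 pairs, 0.06), 13 guanylyl cyclases and nitric oxide synthases (76 pairs, -0.02), 7 G protein alpha subunits (114 pairs, -0.0024) and 9 CREB genes and coactivators (132 pairs, -0.02) had no call by edgeR, with 7, 8, 7, 7 and 7 pairs at an unadjusted p under 0.05. The 9 protein kinase A subunits and inhibitors (150 pairs, 0.02), the 17 other effectors (98 pairs, 0.04) and the 15 A-kinase anchoring proteins (185 pairs, -0.01) had 1 call each.

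Akap13, which anchors protein kinase A, fell in L4/5-like neurons, from 75.8 and 74.0 CPM in the controls to 45.4 and 51.2 CPM in the CrT-KO libraries (log2 fold change -0.59, SE 0.11, edgeR adjusted p = 0.0196). Prkg2, a cyclic GMP-dependent protein kinase, fell in the same neurons, from 16.8 and 22.8 to 9.60 and 12.0 CPM (-0.84, SE 0.20, edgeR adjusted p = 0.0825). Pkib, an inhibitor of protein kinase A, fell in L5 IT-like neurons, from 28.6 and 35.7 to 15.5 and 16.4 CPM on 34 to 75 UMIs per library (-0.99, SE 0.23, edgeR adjusted p = 0.0442). DESeq2 called Akap13 alone of the 3. Among these 3 calls and that of Pde4b in SST-like nuclei, 1 was lost with doublets kept and 1 with clusters rebuilt without the pathway genes. Without control 2 or without CrT-KO 1 the calls of Prkg2 and Pkib were lost, that of Prkg2 at -0.59 and -0.67 and that of Pkib at -0.80 and -0.92.

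Of the other phosphodiesterases, Pde10a, the striatal enzyme that cleaves both nucleotides, was highest in MSN-like neurons at 4590 CPM, Pde3b in microglia at 1399, Pde8a in oligodendrocytes at 814 and Pde3a in endothelial/pericyte nuclei at 334 CPM. Pde10a was itself among the markers used to name MSN-like nuclei. It was also at 2298 CPM in LAMP5-like interneurons, and its median over the 18 populations was 1702 CPM. None of these phosphodiesterases was called by edgeR in any of the 18 populations.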

How the data were processed

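The deposited files held counts: raw UMIs per gene and nucleus for each of 4 libraries, made by the authors with Cell Ranger 3.1.0 on a pre-mRNA reference of GRCm38/mm10 in which whole gene bodies count as exon. Strand use in counting is not given in the sources used here. The members, lists and populations were chosen with earlier results of these data known, and naming thresholds were set after the nuclei were seen.

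Doublets were marked per library with Scrublet in scanpy 1.11.5, and nuclei were clustered (3000 variable genes, 30 principal components, 20 neighbours, Leiden resolution 1). Clusters were named only with at least 20 nuclei and at least 3 markers each found in 10% of nuclei. Their 10 leading genes could hold no more markers of another list than of their own. A neuron type also needed a mean marker score of at least 0.5 and a lead of at least 0.25 over the next type. Further rules covered the share of class markers found and shallow clusters. Within each population, the UMIs of a library were added up and the sums tested with edgeR 4.0.16 (quasi-likelihood, TMM, Benjamini-Hochberg over all genes of a population), with DESeq2 1.42.0 as an alternative. Standard errors follow from the F statistic. Named genes were the members, called pathway genes and the 2 genes most like each member. Gene positions are from GENCODE vM21, in which 21893 of 21933 IDs were found. Alternatives: normalization, low-count filter, block, each library left out, doublets kept, threshold, cluster shares, clustering genes. edgeR was tested on simulated counts. SDs are over libraries and cover no counting error separately. Libraries came from separate animals.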

Additional observations from a re-analysis of the deposited data

Results flagged for a closer look

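Populations in which both CrT-KO libraries lay on one side of both controls, while another population showed the opposite, drew attention for Pde4b and the 3 called pathway genes. The search began from these called genes and looked through the other populations for the opposite order. With 2 libraries per group such an order is easily met, and its share over all genes was not determined. Nothing is therefore read from the populations listed or from their number. The differences between populations were not tested. The Pde4b log2 fold change of CrT-KO over control was 0.53 in SST-like interneurons, and on the other side it was -0.10 in OPCs, -0.38 in endothelial/pericyte nuclei, -0.10 in L4/5-like, -0.23 in L5 IT-like, -0.24 in L5 ET-like, -0.31 in L6 CT-like, -0.079 in L6 IT-like, -0.18 in L6b-like and -0.26 in VIP-like neurons. Prkg2 was at -0.84 in L4/5-like neurons and at 0.39 in OPCs. Akap13 was at -0.59 in L4/5-like neurons, 0.058 in microglia and 0.20 in endothelial/pericyte nuclei. Pkib was at -0.99 in L5 IT-like neurons, 0.79 in PV-like and 0.46 in VIP-like interneurons.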

How the results depend on the processing

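The 292 gene and population pairs called over the 18 populations became 160 with DESeq2, 601 with no low-count filter, 150 at a threshold of 0.05 and 551 to 792 with each library left out in turn, where the lone sample of a group is assumed to vary like the other group. The 3 pathway calls became 1 with DESeq2 and 4 to 10 with a library left out (5 without control 2, 5 without CrT-KO 1 and 10 without CrT-KO 2). The 1 call among the members became 2 with doublets kept and 1 to 6 with a library left out (2 without control 2, 6 without CrT-KO 1 and 5 without CrT-KO 2). The paper states that mutant and wild-type animals came from the same litters, but replicate numbers are not tied to a litter or day. Each gene's deviation of log CPM from its genotype mean was compared between control 1 and CrT-KO 1. Across genes these deviations correlated at -0.03 to 0.16 over 20 populations and at 0.20 in all named nuclei. A correlation across genes cannot show whether 2 libraries shared a litter or day. Whether the numbers pair the libraries was therefore not determined, and the main fits did not use them. With the replicate number as a block, the counts were 1911 for all genes, 15 for pathway genes and 7 for members. The highest population was kept for 9 of 9 members with doublets kept, with clusters rebuilt without the pathway genes and with each library left out, and for 7 by UMIs per nucleus. Log2 fold changes were recomputed for members at an unadjusted p under 0.05, for each tested member in its highest population and for the 3 called pathway genes. Of the 317 values, 311 kept their sign. The 6 others belong to Pde1c and Pde7b in MSN-like neurons, Pde4b in oligodendrocytes and Pde11a in LAMP5-like interneurons, whose values were near 0. Estimates chosen for lying far from 0 tend to keep their sign, so nothing is read from that count. Of the 317, 268 kept their call or moved by less than the spread between replicates, 28 moved by more than that spread, 9 lost their call and 12 were newly called. Only refits of the 1 member call and the 3 pathway calls could lose a call, so the 9 losses are not to be read against all 317. The 268 mix kept calls with estimates that were not called at the start. Without control 1 Pde8b in endothelial/pericyte nuclei was 0.78, without CrT-KO 1 Pde1a in PV-like nuclei was -0.57, and without control 2 Pde4b was -0.14 in L5 IT-like and -0.12 in L5 ET-like neurons. The causes were not tested. The design had 2 animals per genotype, and endothelial/pericyte nuclei numbered 39 to 90 per library. The smallest detectable difference was not determined.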

Other observations

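Chosen after its values were seen, Pde1a in the 408 SST-like nuclei led by Trhde was at 428 and 417 CPM in the controls and 254 and 245 CPM in the CrT-KO libraries, on 170 to 300 UMIs per library. In the other SST-like sub-clusters the groups overlapped, at 748 and 565 against 661 and 576 CPM in that led by Lama4 and at 1692 and 2617 against 2398 and 1728 CPM in that led by Nos1. An inhibitory sub-cluster of 46 nuclei left without a type name had 4046 CPM of Pde1c, above each named population.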
